A study of Homo sapiens with 120 samples.

Results

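The genes described are 29 members of the Fanconi anemia and homologous recombination pathways. They were taken from a list of 33 gene names by a rule that used no measured change: a gene had to have a probe set naming that gene alone, and where several did, the probe set with the highest mean was used. The other 4 genes of the list have no such probe set in the annotation table and are not analysed here. The 29 genes stand among 19775 genes named in this way, and all 29 were among the 14023 genes bright enough to be tested, which means a log2 value of at least 6.183 in at least 3 arrays.

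The Fanconi pathway repairs crosslinks between DNA strands. A core complex of FANC proteins attaches ubiquitin to a pair of partner proteins at the crosslink, nucleases then cut the DNA on either side of it, and the resulting break is mended by homologous recombination, in which a broken end is trimmed and a recombinase copies the sister DNA with the help of BRCA1 and its partners. Cells that lack these genes are known for sensitivity to crosslinking agents and to aldehydes such as formaldehyde, and several of the genes are known to be transcribed mainly in dividing cells.

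TK6 is an established human lymphoblastoid line, made of B cells. Its RNA was measured on 120 Affymetrix HG-U133 Plus 2 arrays in 40 groups of 3 arrays, and values are log2 expression levels. The groups fall into 5 sets by chemical. Formaldehyde (FA), which crosslinks DNA to protein, was used at 50, 100 and 200 µM. The doses were 80, 160 and 320 µM for methyl methanesulfonate (MMS) and 1, 2 and 4 mM for ethyl methanesulfonate (EMS). Colcemid (COL) and vincristine (VCR) are tubulin poisons. MMS transfers methyl groups and EMS ethyl groups to DNA, and both break chromosomes. The labels give 1, 2 and 4 µg/ml for COL and for VCR, but the sample titles carry leading zeros and a decimal point may have been lost, and doses of these compounds are therefore named by rank. Treatment lasted 4 h or 24 h, and each set had untreated arrays of its own at both times. All groups share the same unmodified cell line, so the results are those of a single line in culture. The labels number 3 experiments a group but do not say whether these were separate cultures, so the p-values measure the spread between these arrays, which may be technical.

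Array medians lay between 6.133 and 6.243, and the number of arrays, not a read depth, limits the precision. Of 12 B cell markers, 11 had a probe set, and their mean levels lay between 8.69 and 13.8, with a median of 10.96. The median levels of the markers of T and NK cells, of monocytes and granulocytes, and of epithelium and fibroblasts lay between 6.02 and 6.21, near the array medians. The brightest marker of each of these lists had a mean of 7.97, 7.65 and 8.54, the last close to the lowest B cell marker. The untreated FA array of experiment 3 at 4 h stood apart from the other 2 of its group, and results that rest on it are given with and without it. The 3' minus 5' signal of ACTB, a sign of RNA quality, was 1.88 ± 0.26 (SD, n = 3) after 24 h of 320 µM MMS and 0.941 ± 0.079 in the untreated arrays of that time. It was 0.768 ± 0.070 against 0.481 ± 0.024 after 24 h of 200 µM FA. The part of RNA quality in the changes below was not tested.

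The 29 genes were first counted in each comparison with the untreated arrays of the same set and time, at an adjusted p under 0.05 (limma, adjusted by Benjamini and Hochberg over the 14023 genes of the comparison). Such a change is written below as rose, fell or called, and log2 changes carry standard errors from that fit with n = 3 arrays a group. At the highest doses, most of the genes rose after 24 h with the alkylating agents and most fell with the tubulin poisons, and more fell than rose after 4 h of FA.

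After 4 h, no gene was called with 50 µM FA, where 4 had an unadjusted p under 0.05 (limma) and 0.820% of all tested genes were called. With 100 µM, 4 rose and 13 fell, while 20.9% of all tested genes rose and 19.8% fell. With 200 µM, 8 rose and 14 fell, against 29.6% and 24.2% of all tested genes. The median log2 change of the 29 genes at 200 µM was -0.13, and that of all tested genes was 0.08. The lower calls of the 29 were thus a larger share than among all tested genes at both doses, and 3 of them at 200 µM were at least 2-fold. Leaving out the untreated array of experiment 3 left 17 calls at 100 µM and 18 at 200 µM, and leaving out all arrays of experiment 1 left 9 at 100 µM.

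After 24 h of FA, no gene was called at 50 µM, where limma called none of all tested genes and no member had an unadjusted p under 0.05. None was called at 100 µM either, where 1 member had an unadjusted p under 0.05 and 3.81% of all tested genes were called. At 200 µM, 3 rose and 9 fell, against 23.8% and 23.9% of all tested genes. The median change at 200 µM was -0.02 for the 29 genes and -0.03 for all tested genes.

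With MMS the genes moved mainly at 24 h. After 4 h none was called at 80 µM (8 at an unadjusted p under 0.05 in limma, 1.60% of all tested genes called). At 160 µM 5 rose and 1 fell at that time, against 6.97% and 6.57% of all tested genes, and at 320 µM 7 rose and 5 fell, against 15.3% and 13.4%. These early counts rest on few arrays: at 160 µM the 6 calls became 0, 3 and 3 without experiments 1, 2 and 3, and 11 with experiment as a block, and at 320 µM the 12 became 7 without experiment 1. After 24 h 9 rose and 2 fell at 80 µM (all tested genes, 17.6% and 10.9%), and without each experiment these 11 became 5, 7 and 7. At 160 µM 19 rose and 2 fell (25.7% and 21.6%), and at 320 µM 22 rose and 3 fell (30.8% and 27.7%). The median change of the 29 genes was 0.08, 0.25 and 0.57 from the lowest to the highest dose, and that of all tested genes at 320 µM was -0.04.

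EMS gave a like picture with smaller changes. After 4 h none was called at 1 mM (0 at an unadjusted p under 0.05 in limma, 0.143% of all tested genes called) or at 2 mM (3 and 1.06%). At 4 mM 4 rose and 1 fell at 4 h, against 5.55% and 4.05% of all tested genes, and these 5 became 0, 0 and 1 without experiments 1, 2 and 3. After 24 h 9 rose and 1 fell at 1 mM (15.4% and 8.94%), 12 rose and 2 fell at 2 mM (19.9% and 14.7%), and 16 rose and 4 fell at 4 mM (27.8% and 23.6%). Without experiments 1 and 2 the count fell to 2 and 3 at 1 mM, and to 6 and 8 at 2 mM.

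With the tubulin poisons none of the 29 genes was called at 4 h at any dose. At the highest labelled dose 1 gene each had an unadjusted p under 0.05 with COL and with VCR (limma), and 0.913% and 0.250% of all tested genes were called. At the lowest and middle doses at most 1 gene had an unadjusted p under 0.05, and 0% and 0.0642% of all tested genes were called with COL, 0% and 0.00713% with VCR. After 24 h most calls were lower at every dose. With COL, 1 gene rose and 16 fell at the lowest dose (16.6% and 20.7% of all tested genes), 2 rose and 16 fell at the middle dose (17.4% and 20.3%), and 2 rose and 15 fell at the highest (18.0% and 18.3%). With VCR, 2 rose and 19 fell at the lowest dose (16.6% and 20.8%), 2 rose and 18 fell at the middle dose (17.4% and 19.5%), and 2 rose and 16 fell at the highest (17.5% and 18.2%). The median change of the 29 genes with VCR was -0.31, -0.27 and -0.22 from the lowest to the highest dose, and with COL it was -0.195, -0.201 and -0.221. The median fall with VCR was thus smaller at higher doses, in the reverse of the order of the MMS medians. This did not hold for every gene, and by their main probe sets the falls of BARD1 and RAD52 with VCR grew with dose. Other bright probe sets of these genes did not share that order. From the lowest to the highest VCR dose those of BARD1 gave -0.80, -0.86 and -0.85, and -1.17, -1.10 and -1.08. Those of RAD52 were not called at any VCR dose.

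**Figure D1:**
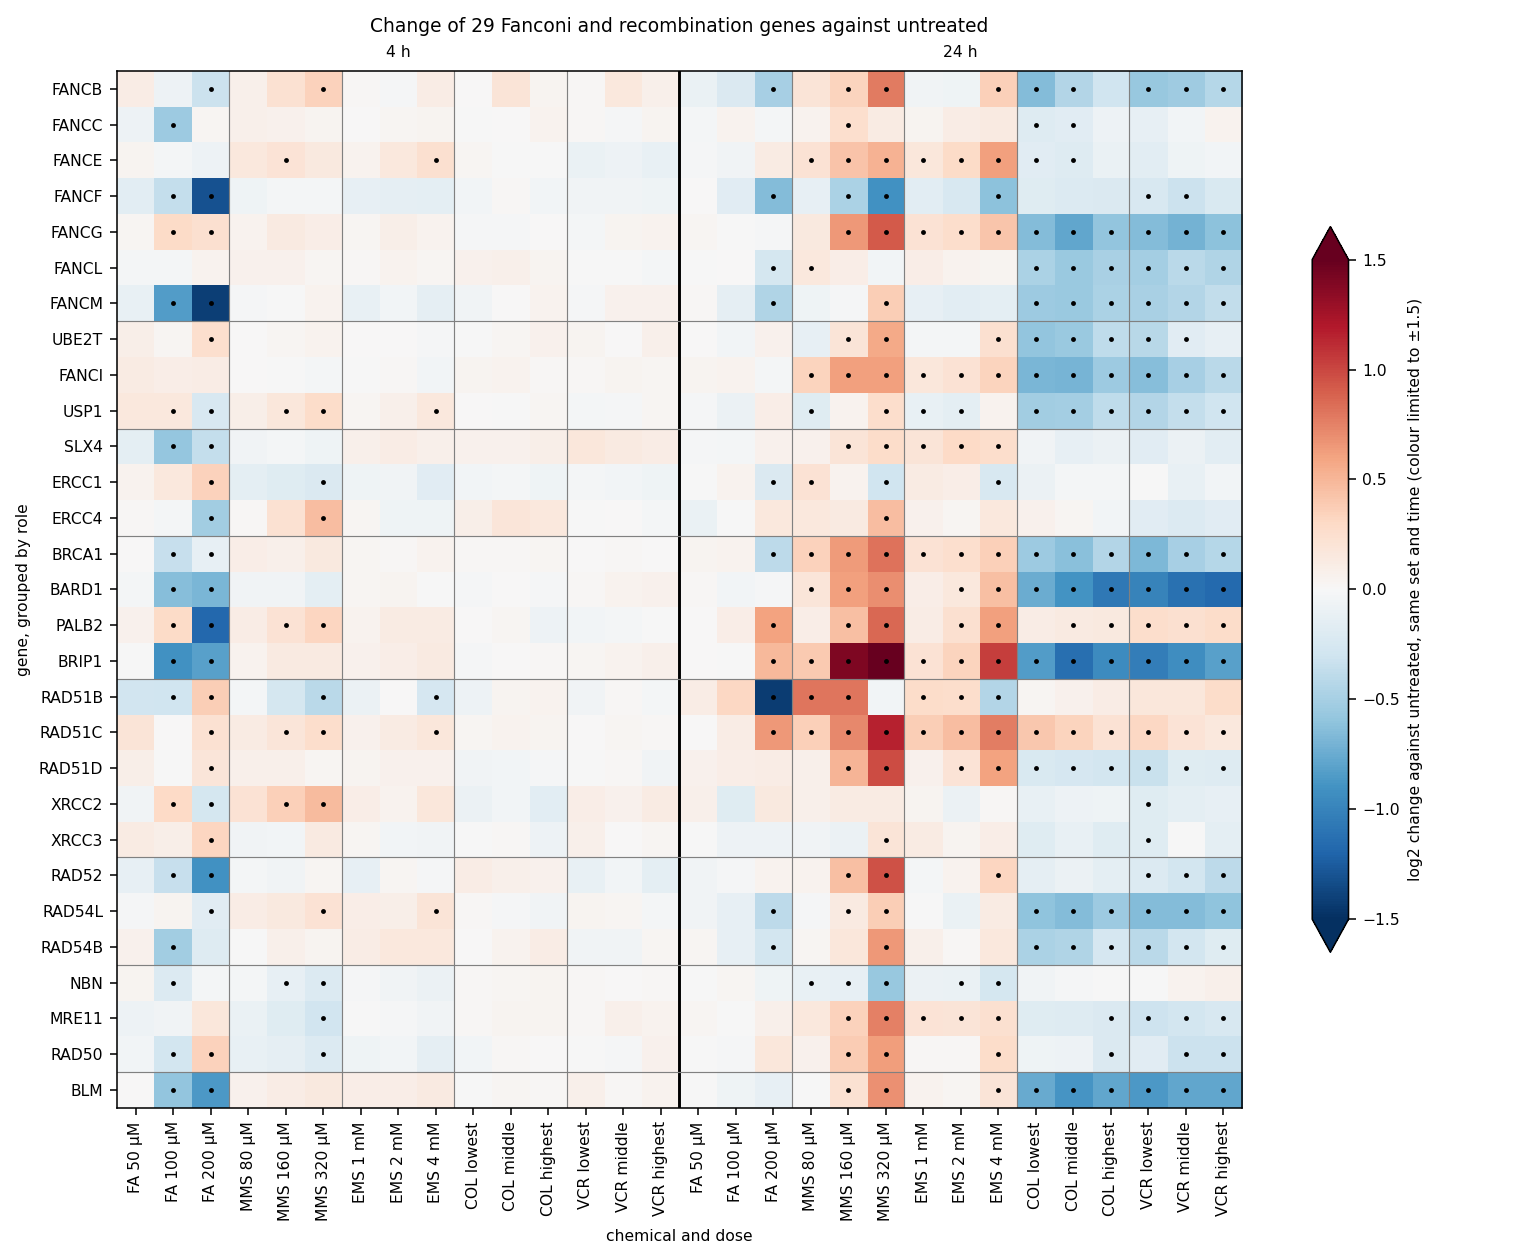
Log2 change of each of the 29 genes (rows, by role) against the untreated arrays of the same set and time, in all 30 comparisons (columns, by chemical, time and dose), with colour for the change, limited to 1.5 either way, and a dot where the adjusted p was under 0.05. The 24 h columns of MMS and EMS are mostly higher, those of COL and VCR mostly lower, and BRIP1 has the largest rise at 2.04.

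**Figure D2:**
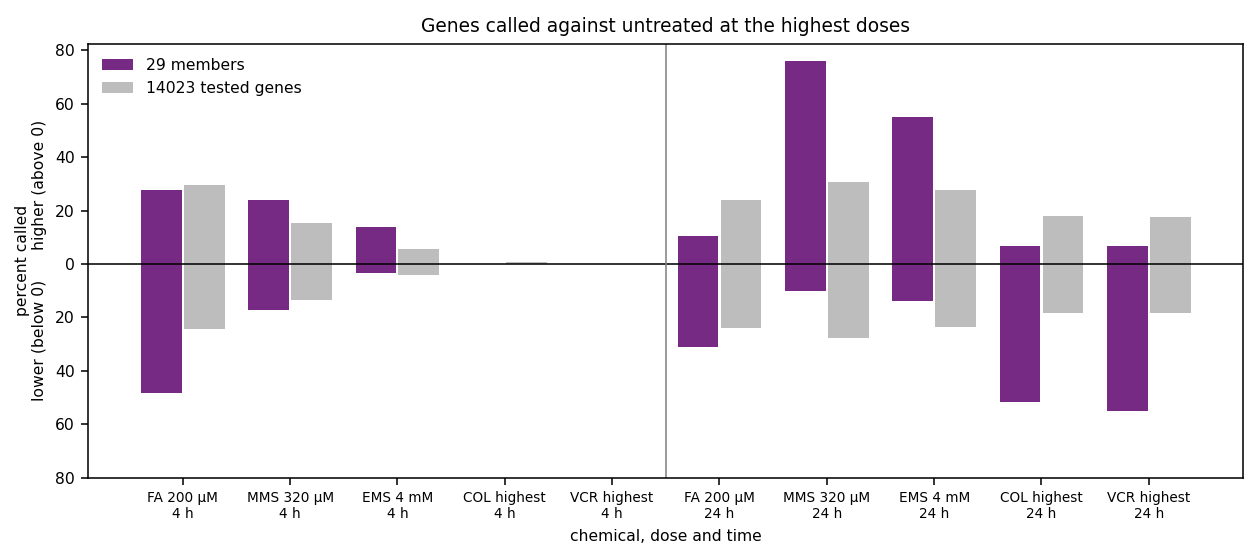
Percent of the 29 genes and of all 14023 tested genes called higher and lower at an adjusted p under 0.05 with the highest dose of each chemical at 4 h and 24 h (bars start at 0). With 320 µM MMS at 24 h 22 of 29 genes rose beside 30.8% of all tested genes, and with COL and VCR at 24 h 15 and 16 fell beside 18.3% and 18.2%.

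Counts by role, here and in the paragraphs that follow, are to be read beside the shares of all tested genes. Those shares are given above for the same comparisons. Each role holds few genes, and a count near those shares is not a result about the role. The core complex was represented by 7 genes. With 200 µM FA, 1 rose and 3 fell at 4 h and 0 rose and 4 fell at 24 h, with a median log2 change of -0.27 at 24 h. With 320 µM MMS at 24 h 4 rose and 1 fell (median 0.37), with 4 mM EMS 3 rose and 1 fell, and with the highest COL and VCR doses 0 rose while 3 and 4 fell (medians -0.30 and -0.37).

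FANCM, a DNA translocase that recruits the core complex to stalled forks (chromosome 14, bases 45135930 to 45200890 of GRCh38.p14), was at 7.79, 7.95 and 8.02 in the untreated FA arrays at 4 h. It read 7.04, 7.24 and 6.96 at 100 µM and 6.63, 6.39 and 6.52 at 200 µM. The 3 groups did not overlap and lay in the order of the dose, with a fall of 0.84 at 100 µM and a log2 change of -1.41 ± 0.095 at 200 µM (adjusted p = 5.15e-11), a 2.65-fold lower level. At 24 h the 200 µM arrays read 7.68, 7.70 and 7.44 against 7.95, 8.26 and 7.98, a smaller change of -0.46 (adjusted p = 0.000345). A second FANCM probe set also fell at 4 h, by 1.23. With 24 h of 320 µM MMS FANCM read 8.71, 8.73 and 8.72 against 8.21, 8.45 and 8.40 untreated, a rise of 0.37 (adjusted p = 0.000164). With the highest COL dose it read 7.62, 7.50 and 7.59 against 7.98, 8.15 and 7.98, a change of -0.47 (adjusted p = 0.000166), with no overlap of the arrays in either. The second FANCM probe set also fell with COL, by 0.53, but was not called with MMS (0.22, adjusted p = 0.0675), so the rise with MMS rests on 1 probe set.

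FANCF, an adaptor that holds parts of the core complex together (chromosome 11, bases 22622533 to 22625823), fell in all 8 of the 30 comparisons in which it was called. In the FA set at 4 h it read 8.84, 8.80 and 8.58 untreated, 8.30, 8.49 and 8.37 at 100 µM and 7.55, 7.55 and 7.21 at 200 µM. The doses did not overlap, and the change at 200 µM was -1.31 ± 0.103 (adjusted p = 7.46e-10). At 24 h it read 8.21, 8.43 and 8.34 at 200 µM against 8.96, 9.05 and 8.92, a change of -0.65 (adjusted p = 1.69e-05). FANCF also fell where most of the other genes rose. After 24 h of 320 µM MMS it read 8.17, 8.22 and 8.21 against 9.14, 9.19 and 9.01 untreated, a change of -0.91 (adjusted p = 4.72e-10). With 4 mM EMS at 24 h it read 8.48, 8.59 and 8.39 against 9.06, 9.20 and 9.05, a change of -0.62 (adjusted p = 7.48e-06). The second FANCF probe set was called lower in the same 8 comparisons.

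FANCG, another core complex subunit (chromosome 9, bases 35073839 to 35079942), went the opposite way from FANCF with the alkylating agents. With 320 µM MMS at 24 h it read 9.63, 9.51 and 9.58 against 8.53, 8.76 and 8.65 untreated, a change of 0.92 ± 0.071 (adjusted p = 2.62e-10). After 4 mM EMS it read 9.08, 9.09 and 9.05 against 8.63, 8.69 and 8.66, a change of 0.42 (adjusted p = 1.23e-05). In the arrays of the highest COL dose it read 8.14, 8.23 and 8.14 against 8.83, 8.77 and 8.69, a change of -0.59 (adjusted p = 2.52e-07). With VCR the arrays read 8.11, 8.14 and 8.08 against 8.74, 8.76 and 8.67, a change of -0.61 (adjusted p = 2.5e-07). No treated array overlapped the untreated ones in these 4 comparisons. At 4 h FANCG rose with FA, by 0.29 at 100 µM (8.95 to 9.11 against 8.72 to 8.81 untreated) and by 0.24 at 200 µM.

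Of the other core complex genes, FANCE was called higher in 8 comparisons, with the largest rise of 0.62 after 24 h of 4 mM EMS (8.48 to 8.68 against an untreated mean of 7.99). FANCB was called higher in 4 and lower in 7, with 0.78 after 24 h of 320 µM MMS and -0.50 after 24 h of 200 µM FA. FANCL, the subunit that acts as the ubiquitin ligase, was called lower in 7 and higher in 1, and read 10.46, 10.43 and 10.46 after 24 h of the highest COL dose against 10.98, 10.89 and 10.93, a change of -0.48. FANCC was called in 4 comparisons, 3 of them lower, with -0.55 after 4 h of 100 µM FA and 0.03, not called, at 200 µM.

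Promoter sequence is shown for BRIP1, the gene with the largest change, and for FANCM, FANCF and PALB2, the 3 genes that fell at least 2-fold after 4 h of 200 µM FA. All of them are among the 10 genes with the largest called changes, so each was chosen by its measured values. The other 3 were picked for display here after those values were seen. The sequences are from RefSeq (GRCh38.p14), run 5' to 3' on the gene's strand and end at the base before the annotated start of the gene. Stretches that belong to a neighbouring gene were left out, which leaves 250 bases for BRIP1 (chr17:61863529-61863778, minus strand) and FANCM (chr14:45135680-45135929, plus strand), 178 for FANCF (chr11:22625824-22626001, minus strand, next to GAS2) and 155 for PALB2 (chr16:23641311-23641465, minus strand, next to DCTN5). Capitals mark a CCAAT box or a CHR motif, a short element of cell cycle genes, on either strand.
BRIP1: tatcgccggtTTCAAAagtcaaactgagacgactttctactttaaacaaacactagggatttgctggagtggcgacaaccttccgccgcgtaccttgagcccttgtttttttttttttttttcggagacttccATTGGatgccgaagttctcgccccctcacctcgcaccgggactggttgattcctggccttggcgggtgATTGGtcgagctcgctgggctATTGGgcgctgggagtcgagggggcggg
FANCM: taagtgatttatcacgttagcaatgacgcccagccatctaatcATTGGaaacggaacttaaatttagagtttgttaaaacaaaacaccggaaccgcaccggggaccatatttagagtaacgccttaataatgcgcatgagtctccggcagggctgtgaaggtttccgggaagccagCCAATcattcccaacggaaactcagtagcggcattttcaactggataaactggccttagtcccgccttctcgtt
FANCF: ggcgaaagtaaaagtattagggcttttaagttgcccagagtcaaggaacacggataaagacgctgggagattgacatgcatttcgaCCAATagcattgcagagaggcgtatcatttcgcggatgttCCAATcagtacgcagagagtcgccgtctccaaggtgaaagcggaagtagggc
PALB2: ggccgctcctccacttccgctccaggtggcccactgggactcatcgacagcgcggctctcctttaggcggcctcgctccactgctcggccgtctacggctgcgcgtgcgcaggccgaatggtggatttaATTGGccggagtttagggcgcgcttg

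The CHR letters of BRIP1 lie 240 bases before its start, and its 3 CCAAT boxes 117, 49 and 28 bases before. FANCM has CCAAT boxes at 207 and 74 bases, FANCF at 92 and 52, and PALB2 at 26. Of the 29 genes, 26 had a window of 250 bases before and 50 after the start in the RefSeq table. CCAAT, on either strand, was in 10 of these 26 windows (38.5%), beside 36.3% of 11163 windows of tested genes and 35.7% of all 27305. The CHR letters TTTGAA or TTCGAA were in 3 (11.5%: FANCC, UBE2T and BRIP1), beside 12.1% and 16.7%. The E2F letters TTTCCCGC, TTTCGCGC or TTTGGCGC were in 2 (7.69%: FANCC and XRCC2), beside 4.32% and 2.79%. The p53 motif was in 0 of 26, beside 0.0179% and 0.0293%. A match is a description of letters in this window and not a bound site.

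The ubiquitin switch was represented by 3 genes, UBE2T, the conjugating enzyme that works with FANCL, FANCI, which is tagged, and USP1, which removes the tag. All 3 rose with 24 h of 320 µM MMS (median 0.57) and all 3 fell with the highest COL dose (median -0.39). FANCI read 12.05, 11.91 and 12.06 after MMS against 11.40, 11.40 and 11.37 untreated, a rise of 0.62. After COL it read 10.62, 10.61 and 10.66 against 11.14, 11.20 and 11.18, a change of -0.55. Both treatments left the FANCI arrays clear of their untreated group, on opposite sides. The main FANCI probe set was called in 12 comparisons. The brighter of its other probe sets was called the same way in 10 of them and the opposite way in 0. The dimmer was called the same way in 6 and the opposite way in 3, so the FANCI probe sets disagree there. Which comparisons these 3 were is not given here. USP1 was called lower in 10 comparisons and higher in 5, and rose already after 4 h of 320 µM MMS, by 0.28 (12.57, 12.61 and 12.59 against 12.32, 12.27 and 12.34).

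Of the 3 incision genes, SLX4, a scaffold for nucleases, rose by 0.28 with 320 µM MMS and by 0.27 with 4 mM EMS at 24 h, and fell by 0.58 after 4 h of 100 µM FA. The other bright SLX4 probe set was called in 0 of the 7 comparisons in which the main one was, and had the same sign in 2. ERCC4, the catalytic partner of ERCC1 in a nuclease, fell by 0.52 after 4 h of 200 µM FA and rose by 0.46 after 4 h of 320 µM MMS. In that FA comparison its arrays read 6.67, 6.90 and 6.59 against 7.30, 7.29 and 7.14. None of the 3 was called with COL or VCR at the highest dose. ERCC1 moved in opposite directions at the times of 200 µM FA: at 4 h it read 9.96, 9.95 and 10.04 against 9.68, 9.72 and 9.52, a change of 0.34 ± 0.080 (adjusted p = 0.00118). At 24 h it read 9.04, 9.43 and 9.36 against 9.51, 9.57 and 9.42, a change of -0.22 (adjusted p = 0.0268), where the treated and untreated arrays overlap. The change at 24 h minus that at 4 h was -0.56 ± 0.113 (adjusted p = 0.000259). The other ERCC1 probe sets gave 0.13 and 0.09 at 24 h, and the main one was not called at 24 h without experiment 1 (-0.10) or 2 (-0.26), nor at 4 h without experiment 3 (0.25).

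BRCA1 and the 3 partners measured were called with the highest dose of every chemical. After 4 h of 200 µM FA all 4 genes of this group fell (median -0.75), after 24 h of 320 µM MMS and of 4 mM EMS all 4 rose (medians 0.84 and 0.54), and after 24 h of the highest COL and VCR doses 3 fell and 1 rose (medians -0.69 and -0.62).

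BRIP1, a helicase that binds BRCA1 (chromosome 17, bases 61679139 to 61863528), rose with dose of MMS at 24 h. Its untreated arrays read 8.65, 8.76 and 8.69. They read 9.04, 9.15 and 9.08 at 80 µM, 10.12, 10.10 and 10.08 at 160 µM and 10.83, 10.59 and 10.80 at 320 µM. No group overlapped the next, and the changes were 0.39, 1.40 and 2.04 ± 0.058, the last a 4.11-fold higher level (adjusted p = 3.22e-17). With 4 mM EMS it read 9.58, 9.66 and 9.62 against 8.57, 8.65 and 8.54, a change of 1.03 (adjusted p = 9.27e-13), after 0.22 at 1 mM and 0.33 at 2 mM. The change of BRIP1 at 320 µM MMS exceeded that at 4 mM EMS by 1.01 (adjusted p = 1.46e-12), at doses that differ.

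With the tubulin poisons BRIP1 fell at 24 h at every dose. With the highest COL dose it read 7.83, 7.83 and 7.76 against 8.67, 8.81 and 8.79, a change of -0.95 (adjusted p = 2.17e-10), beside -0.84 and -1.13 at the lowest and middle doses. With the highest VCR dose it read 7.91, 7.97 and 7.94 against 8.73, 8.77 and 8.75, a change of -0.81 (adjusted p = 5.34e-12), beside -1.04 and -0.93. By the main probe set the fall of BRIP1 was smaller at each higher dose of VCR, and with COL it was largest at the middle dose. A second BRIP1 probe set also fell at every dose, but in another order. From the lowest to the highest dose it gave -0.905, -1.053 and -0.896 with VCR and -0.678, -0.848 and -0.959 with COL.

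With FA, BRIP1 changed direction between the times. At 4 h it read 9.16, 9.04 and 9.13 untreated, 8.17, 8.33 and 8.11 at 100 µM and 8.46, 8.24 and 8.19 at 200 µM, changes of -0.91 ± 0.075 and -0.81. At 24 h of 200 µM it read 9.21, 9.08 and 9.09 against 8.59, 8.65 and 8.68, a change of 0.49 (adjusted p = 1.24e-05). The treated arrays lay below all untreated ones at 4 h and above them at 24 h, and the difference between the times was 1.30 ± 0.106 (adjusted p = 1.58e-09). The second BRIP1 probe set gave -0.03 at 24 h of 200 µM FA, not called, so the late rise rests on 1 probe set. At 24 h of the highest doses both rose with MMS (1.73 for the second) and EMS (0.69) and both fell with COL (-0.96) and VCR (-0.90). The second was not called at 24 h of 80 µM MMS (0.25), 1 mM EMS (0.07) or 2 mM EMS (0.08). The rises at those lower doses therefore rest on 1 probe set.

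PALB2, which links BRCA1 to the loading of the recombinase (chromosome 16, bases 23603165 to 23641310), was called higher in 13 comparisons and lower in 1. The lower call was 4 h of 200 µM FA, with 8.51, 8.46 and 8.47 against 9.60, 9.64 and 9.71, a change of -1.17 ± 0.054 (adjusted p = 1.14e-13). At 100 µM and the same time it read 9.99, 9.93 and 9.89, a rise of 0.28 (adjusted p = 0.000197). The doses thus lay on opposite sides of the untreated arrays, 200 µM below 100 µM by a log2 difference of -1.46 (adjusted p = 7.47e-15). At 24 h of 200 µM PALB2 read 10.18, 10.12 and 10.22 against 9.51, 9.69 and 9.51, a rise of 0.60 (adjusted p = 5.42e-09), and the difference between the times was 1.78 ± 0.076 (adjusted p = 7.08e-14).

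PALB2 rose with the highest dose of all 4 other chemicals at 24 h. It read 10.55, 10.53 and 10.52 with 320 µM MMS against 9.62, 9.69 and 9.68, a change of 0.87 (adjusted p = 2.4e-12), and 10.12, 10.24 and 10.12 with 4 mM EMS against 9.45, 9.58 and 9.60, a change of 0.62 (adjusted p = 1.39e-07). With the highest VCR dose it read 9.79, 9.85 and 9.72 against 9.43, 9.60 and 9.52, a change of 0.27 (adjusted p = 0.000537), which was not called without experiment 1 (0.22). With COL it read 9.72, 9.76 and 9.73 against 9.55, 9.61 and 9.61, a change of 0.15 (adjusted p = 0.0151), which was not called without any 1 of the 3 experiments (0.14 to 0.16). PALB2 and RAD51C were the 2 of the 29 genes called higher at the highest dose of each tubulin poison, RAD51C by 1 of its probe sets only. For PALB2 the annotation holds 1 probe set only.

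BARD1, the partner with which BRCA1 forms a ubiquitin ligase (chromosome 2, bases 214725646 to 214809683), fell at every dose of the tubulin poisons at 24 h. With the highest COL dose it read 9.42, 9.50 and 9.40 against 10.54, 10.48 and 10.50, and the changes from the lowest to the highest dose were -0.75, -0.90 and -1.07 ± 0.037 (adjusted p = 2.52e-14 at the highest). With VCR it read 9.30, 9.32 and 9.26 against 10.39, 10.50 and 10.47, and the changes at the middle and highest dose were -1.12 and -1.16 ± 0.045 (adjusted p = 6.67e-14 at the highest). No treated array overlapped an untreated one in either set. With 320 µM MMS it read 11.14, 11.14 and 11.15 against 10.53, 10.43 and 10.36, a rise of 0.70 (adjusted p = 2.87e-10), and with 4 mM EMS 10.91, 10.91 and 10.93 against 10.41, 10.50 and 10.47, a rise of 0.46 (adjusted p = 1.49e-06). A second BARD1 probe set rose with MMS and EMS as well (0.74 and 0.45), a further one was called with neither (0.05 and 0.07), and both fell with COL and VCR. With FA, BARD1 read 9.71, 9.83 and 9.69 at 4 h of 100 µM and 9.70, 9.72 and 9.67 at 200 µM against 10.39, 10.44 and 10.31, changes of -0.64 and -0.68. At 24 h of 200 µM its change was -0.02 and not called.

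BRCA1 itself rose by 0.81 with 24 h of 320 µM MMS (10.97, 10.81 and 10.93 against 10.12, 10.15 and 10.02) and by 0.35 with 4 mM EMS. It fell by 0.44 with the highest COL dose (9.85, 9.80 and 9.90 against 10.26, 10.32 and 10.30) and by 0.39 after 24 h of 200 µM FA (9.86, 9.94 and 9.82 against 10.25, 10.29 and 10.24). In the 3 comparisons given by array the treated arrays lay wholly outside the untreated range. BRCA1 therefore fell at 24 h of FA while BRIP1 and PALB2 rose.

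**Figure D3:**
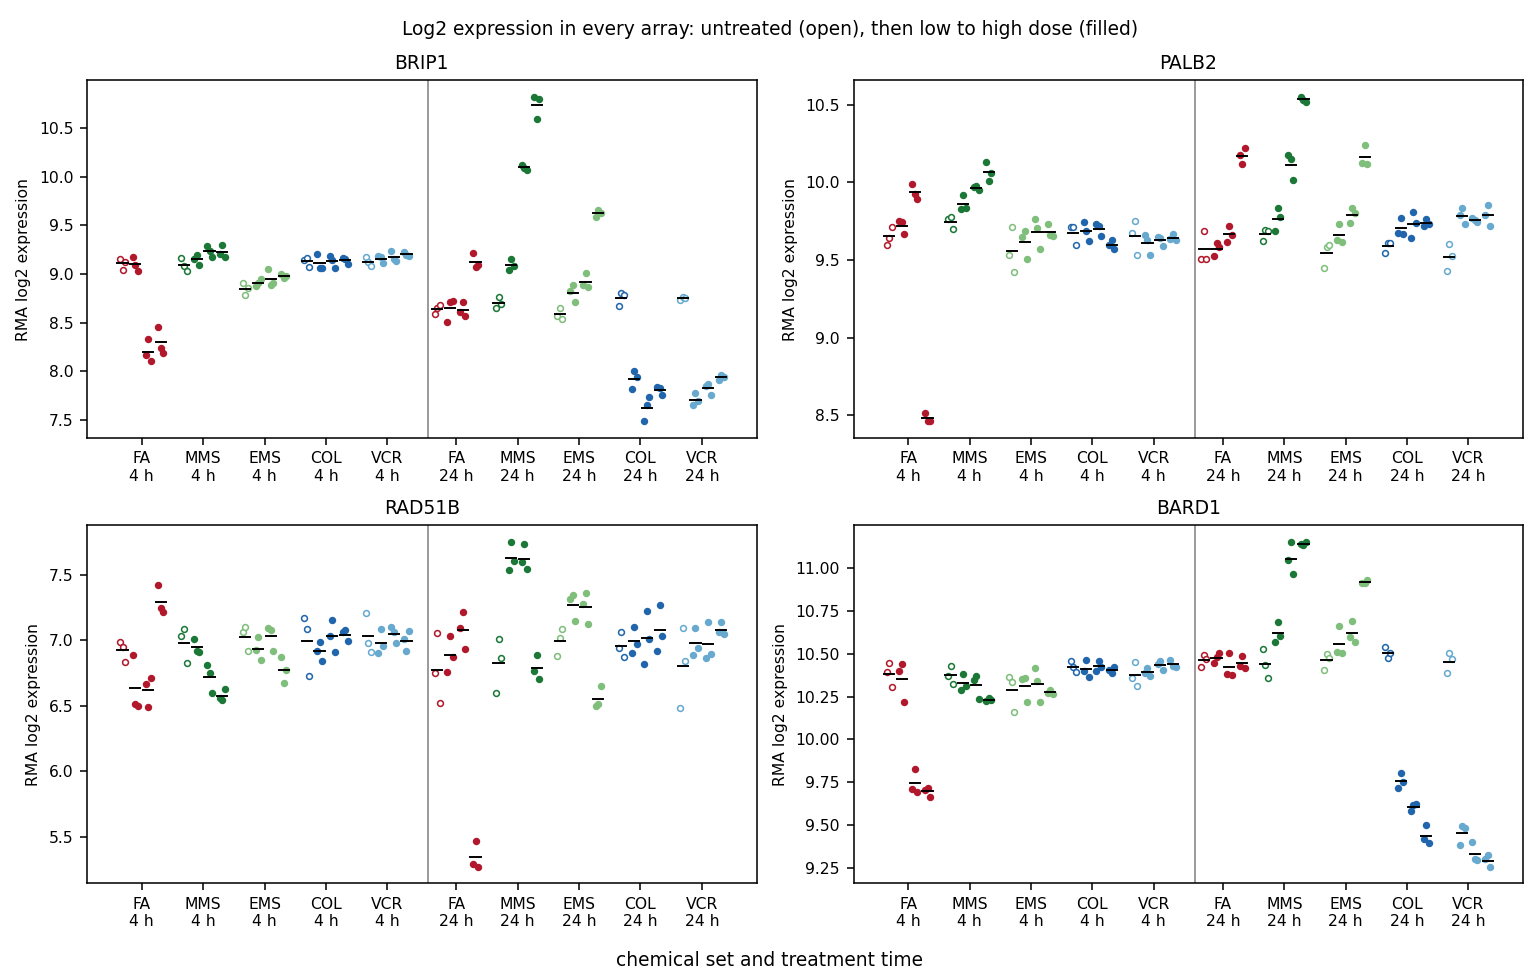
Log2 level of BRIP1, PALB2, RAD51B and BARD1 in every array by chemical and time (open points untreated, filled points from the lowest to the highest dose, black lines the means of 3 arrays). BRIP1 climbs to between 10.59 and 10.83 with 320 µM MMS at 24 h, PALB2 drops to between 8.46 and 8.51 with 200 µM FA at 4 h, and RAD51B drops to between 5.27 and 5.47 with 200 µM FA at 24 h.

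The 5 paralogs of the recombinase, which help it form filaments on single-stranded DNA, did not move as a group: with 200 µM FA 4 rose and 1 fell at 4 h (median 0.23) and 1 rose and 1 fell at 24 h. With 24 h of 320 µM MMS 3 rose and 0 fell (median 0.19). Of the 4 rises at 4 h, those of RAD51B, RAD51C and RAD51D were not called without the untreated array of experiment 3, at 0.33, 0.08 and 0.10.

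RAD51B (chromosome 14, bases 67819779 to 68683096) read 6.99, 6.95 and 6.84 untreated at 4 h of the FA set, 6.67, 6.49 and 6.71 at 100 µM and 7.43, 7.25 and 7.22 at 200 µM. The 3 groups did not overlap, with changes of -0.30 (adjusted p = 0.0473) and 0.37 ± 0.119 (adjusted p = 0.0126), and neither was called when all arrays of experiment 1 were left out (-0.29 and 0.34) or, at 100 µM, of experiment 2 (-0.23). At 24 h of 200 µM it read 5.29, 5.47 and 5.27 against 6.75, 7.05 and 6.52, a change of -1.43 (adjusted p = 1.99e-09). All 3 treated arrays lay below the limit for a testable level, so the 2.69-fold difference ends below the level the array was taken to measure. The difference between the times was -1.80 ± 0.168 (adjusted p = 1.15e-08).

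The alkylating agents moved RAD51B upward at the lower doses only. After 24 h of MMS it read 7.54, 7.75 and 7.61 at 80 µM and 7.59, 7.73 and 7.54 at 160 µM against 6.60, 7.01 and 6.86 untreated, changes of 0.81 and 0.80 (adjusted p = 2.39e-07 at 160 µM). At 320 µM it read 6.76, 6.89 and 6.70, within the untreated range, a change of -0.04 (adjusted p = 0.741). After 24 h of EMS the changes were 0.27 and 0.26 at 1 and 2 mM and -0.44 at 4 mM (adjusted p = 5.48e-05), where it read 6.50, 6.52 and 6.65 against 6.88, 7.02 and 7.09. The rises at 1 and 2 mM were not called without experiment 1 (0.19 at both doses) or experiment 2 (0.25 and 0.22). The 3 other RAD51B probe sets had means below the limit and give no second reading.

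RAD51C (chromosome 17, bases 58692573 to 58735611) was called higher in 17 comparisons and lower in 0, including all 3 doses of all 4 other chemicals at 24 h. With 320 µM MMS it read 11.86, 11.93 and 11.90 against 10.71, 10.79 and 10.73, and the changes were 0.36, 0.72 and 1.15 from the lowest to the highest dose (adjusted p = 2.84e-16 at 320 µM). With 4 mM EMS it read 11.58, 11.62 and 11.58 against 10.78, 10.85 and 10.83, and the changes were 0.37, 0.46 and 0.77 (adjusted p = 2.31e-13 at 4 mM). With COL the changes were 0.40, 0.34 and 0.21, and the arrays of the lowest dose (11.24, 11.31 and 11.28) lay above those of the highest (11.09, 11.10 and 11.08) and of no treatment (10.86, 10.91 and 10.87). With VCR the changes of RAD51C were 0.31, 0.21 and 0.16, and the last was not called without experiment 1. A second RAD51C probe set rose at the lowest and middle COL doses (0.32 and 0.25) but was not called at the highest (0.02, adjusted p = 0.864) or with VCR (0.13, -0.05 and -0.11). After 24 h of 200 µM FA the first probe set read 11.48, 11.50 and 11.54 against 10.81, 10.91 and 10.85, a change of 0.65 (adjusted p = 3e-07). By the main probe set the rise with dose held for the alkylating agents, and the smaller rises with the tubulin poisons were largest at the lowest dose. The second probe set gave 0.13 (not called), 0.37 and 0.97 from the lowest to the highest MMS dose at 24 h. With EMS at 24 h it gave 0.28, 0.25 and 0.47, so its rise was not larger at 2 mM than at 1 mM.

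RAD51D (chromosome 17, bases 35092221 to 35119860) read 8.81, 8.84 and 8.68 after 24 h of 320 µM MMS against 7.71, 7.90 and 7.80, a change of 0.97 ± 0.059 (adjusted p = 4.61e-12). With 4 mM EMS it read 8.41, 8.52 and 8.35 against 7.73, 7.88 and 7.84, a change of 0.61 (adjusted p = 1.89e-07). The highest COL dose gave it levels of 7.66, 7.69 and 7.76 against 7.89, 8.03 and 8.02, a change of -0.28 (adjusted p = 0.000974). RAD51D thus rose with the alkylating agents like RAD51C and fell with COL unlike it, with no overlap in these comparisons. A second RAD51D probe set also rose with 320 µM MMS (1.29) and 4 mM EMS (0.84). It was not called at the highest COL dose (-0.14, adjusted p = 0.386). At that dose the contrast of RAD51D with RAD51C therefore rests on the main probe set of each gene. XRCC2 rose by 0.47 after 4 h of 320 µM MMS (8.84, 8.80 and 8.92 against 8.43, 8.38 and 8.34), and its probe set is of a kind that may also bind related transcripts. XRCC3 rose by 0.33 after 4 h of 200 µM FA and by 0.19 after 24 h of 320 µM MMS.

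Of the 3 strand exchange helpers, 2 fell at each time of 200 µM FA, all 3 rose with 24 h of 320 µM MMS (median 0.65), and 2 and 3 fell with the highest COL and VCR doses. RAD52, an annealing protein (chromosome 12, bases 911736 to 991122), read 6.28, 6.37 and 6.29 after 4 h of 200 µM FA against 7.26, 7.14 and 7.25, a change of -0.90 ± 0.109 (adjusted p = 4.74e-07). With 24 h of 320 µM MMS RAD52 read 8.01, 7.96 and 8.10 against 7.01, 7.17 and 7.01, a change of 0.96 (adjusted p = 1.68e-08). With 4 mM EMS it read 7.40, 7.57 and 7.52 against 7.01, 7.28 and 7.24, a rise of 0.32 (adjusted p = 0.000736). The treated RAD52 arrays were clear of the untreated ones in all 3. The other RAD52 probe sets disagree: at 4 h of FA they gave -1.14, 0.17 and 0.13, and at 24 h of MMS 1.23, 0.21 and 0.04. RAD54L and RAD54B, motor proteins of the exchange step, rose with MMS by 0.37 and 0.65 and fell by 0.55 and 0.25 with the highest COL dose.

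By their main probe sets, the 3 genes of the complex that starts trimming the broken end fell together early with MMS and parted later. After 4 h of 320 µM MMS, MRE11, its nuclease, read 8.25, 8.27 and 8.17 against 8.55, 8.49 and 8.52, a change of -0.29 (adjusted p = 0.00279). At 24 h MRE11 read 9.47, 9.40 and 9.47 against 8.71, 8.85 and 8.50, a rise of 0.76 (adjusted p = 4.47e-09), and the times differed by 1.05 ± 0.099 (adjusted p = 1.76e-08). Its treated arrays lay below the untreated ones at 4 h and above them at 24 h. RAD50, which tethers the ends, read 9.26, 9.23 and 9.19 against 9.50, 9.46 and 9.34 at 4 h, a change of -0.21 (adjusted p = 0.00161). At 24 h RAD50 read 10.24, 10.22 and 10.14 against 9.55, 9.62 and 9.53, a rise of 0.63 (adjusted p = 1.68e-10), and the times differed by 0.84 ± 0.067 (adjusted p = 1.54e-09). The 4 h falls of both were not called without experiment 1 (-0.29 for MRE11 and -0.19 for RAD50). The other bright RAD50 probe sets disagree. The brighter of them gave -0.17 at 4 h, not called, and rose by 0.40 at 24 h. The dimmer rose by 0.37 at 4 h and gave -0.03 at 24 h, not called. NBN, the third subunit, was called in 8 comparisons and fell in all 8. Its other bright probe sets had the same sign in all 8 but were called in only 3, 1 and 2 of them. By its main probe set NBN read 10.96, 10.96 and 10.94 after 24 h of 320 µM MMS against 11.51, 11.52 and 11.54, a change of -0.57 (adjusted p = 2.3e-11). With COL and VCR at the highest dose neither change of NBN passed the test.

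BLM, a helicase that dissolves joined DNA molecules (chromosome 15, bases 90717346 to 90816166), fell at 4 h of 200 µM FA (8.27, 8.20 and 8.14 against 9.06, 9.08 and 9.07) by 0.87. Under the highest COL dose it read 8.33, 8.39 and 8.29 against 8.96, 9.21 and 9.18, and fell by 0.78. With 320 µM MMS for 24 h it read 9.84, 9.86 and 9.73 against 9.05, 9.28 and 9.05, a rise of 0.68 (adjusted p = 1.35e-09). BLM arrays overlapped the untreated ones in none of these, and at 24 h of 200 µM FA it was not called (-0.13).

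**Figure D4:**
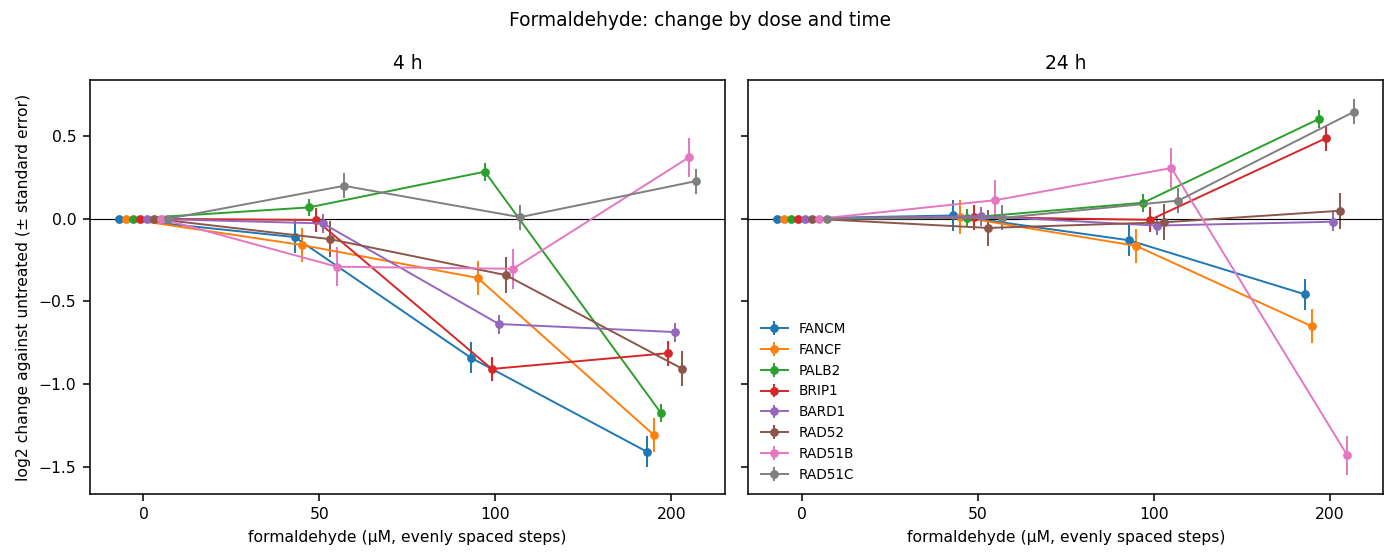
Log2 change against untreated (vertical axis, with SE bars) over the FA dose in µM (horizontal axis) for 8 genes at 4 h and 24 h. FANCM and FANCF fall with dose at 4 h, PALB2 turns from 0.28 at 100 µM to -1.17 at 200 µM, and RAD51B ends at -1.43 at 24 h, where its 200 µM arrays lie below the limit of 6.183.

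Differences between the changes were then tested directly. The class comparison set the mean change of 320 µM MMS and 4 mM EMS against the mean of the highest COL and VCR doses, over 96 arrays. At 24 h 24 of the 29 genes were higher with the alkylating agents and 4 lower, while 29.9% of all tested genes were higher and 24.7% lower. The median difference of the 29 genes was 0.64. BRIP1 had the largest at 2.42 ± 0.053, followed by BARD1 at 1.69, FANCG at 1.27 and BLM at 1.22. The 4 lower genes were FANCF (-0.55), NBN (-0.46), RAD51B (-0.44) and ERCC1 (-0.24). At 4 h 6 were higher and 4 lower, against 10.9% and 12.7% of all tested genes.

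**Figure D5:**
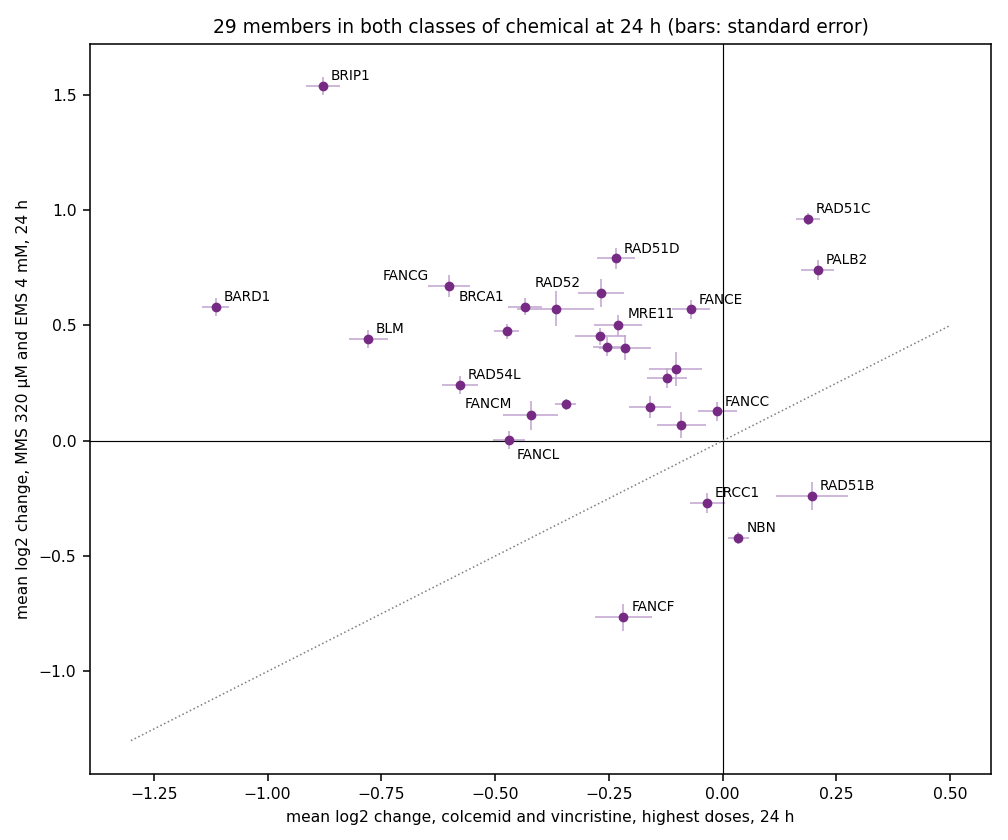
For each of the 29 genes at 24 h, the mean log2 change with 320 µM MMS and 4 mM EMS (vertical axis) against the mean with the highest COL and VCR doses (horizontal axis), with SE bars and a dotted line where both are equal. BRIP1 lies farthest above the line, with a difference of 2.42, and FANCF farthest below, at -0.55.

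FA at 200 µM was set against each class. At 24 h 1 gene was higher with FA than with the alkylating agents (NBN, by 0.36) and 21 were lower, against 14.1% and 21.4% of all tested genes. Against the tubulin poisons 16 were higher and 2 lower at 24 h, while 20.4% and 19.3% of all tested genes were. At 4 h 7 were higher and 16 lower than with the alkylating agents (24.1% and 23.4%), and 8 higher and 13 lower than with the tubulin poisons (26.6% and 24.3%). Between the FA doses, 12 genes were higher and 9 lower at 200 than at 100 µM at 4 h (17.4% and 17.5%), and 5 higher and 7 lower at 24 h (20.5% and 22.2%).

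MMS and EMS differ in the alkyl group they transfer, and their doses were not matched. At 24 h the change at 320 µM MMS was above that at 4 mM EMS in 19 genes and below in 1, against 15.1% and 11.8% of all tested genes, with a median difference of 0.30. At 4 h 1 gene was higher with MMS (ERCC4, by 0.53) and 0 lower, against 3.17% and 4.17%, and this call was lost without any 1 experiment, while experiment as a block gave 2. COL and VCR at their highest labelled doses differed in 0 genes at 4 h (1 at an unadjusted p under 0.05 in limma, 0.0570% of all tested genes called) and in 1 at 24 h, against 1.51% higher and 0.506% lower. That gene was UBE2T, lower with COL by a log2 difference of -0.25, which was not called without any 1 experiment. A difference that was not called does not show that the compounds act alike.

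The change at 24 h minus that at 4 h was higher in 12 and lower in 8 genes with 200 µM FA, where 53.3% of all tested genes were called in either direction. It was higher in 19 and lower in 3 with 320 µM MMS (45.2%), and higher in 13 and lower in 2 with 4 mM EMS (38.3%), where the 15 became 9 without experiment 1. It was higher in 2 and lower in 12 with COL (22.5%), and higher in 1 and lower in 15 with VCR (22.4%). The untreated arrays also differed between the times. In the FA set 8 genes were higher and 1 lower at 24 h (29.5% of all tested genes in either direction), in the MMS set 2 and 6 (32.2%), in the EMS set 8 and 5 (29.9%), in the COL set 12 and 4 (35.0%) and in the VCR set 13 and 5 (32.9%). Without experiment 1 the MMS set had 4, and without experiment 2 the EMS set had 6. The untreated groups are therefore matched by time in every comparison above.

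Other genes of the same pathways were counted from lists of names, to be read beside the shares of all tested genes. Of all tested genes 29.6% rose and 24.2% fell after 4 h of 200 µM FA, and at 24 h of the highest doses the shares were 30.8% and 27.7% with 320 µM MMS, 27.8% and 23.6% with 4 mM EMS, 18.0% and 18.3% with COL and 17.5% and 18.2% with VCR. Of 17 other Fanconi pathway genes, 4 rose and 7 fell after 4 h of 200 µM FA, 11 rose and 4 fell after 24 h of 320 µM MMS (median 0.26), and 2 rose and 7 fell with the highest COL dose at 24 h. REV1 and REV3L, polymerase genes of bypass across lesions, fell by 1.48 and 1.26 after 4 h of 200 µM FA, while REV3L rose by 1.20 after 24 h of 320 µM MMS. Of 27 other recombination genes, 10 rose and 8 fell after 4 h of 200 µM FA, near the shares of all tested genes, 17 rose and 2 fell after 24 h of 320 µM MMS (median 0.53), and 17 rose and 5 fell with 4 mM EMS (0.26). With the highest COL and VCR doses at 24 h 2 and 3 of them rose and 15 and 14 fell (medians -0.21 and -0.20). EXO1, a nuclease that extends end trimming, was among them, with 1.79 after MMS, 0.78 after EMS, -0.81 after COL and -0.69 after VCR. RAD51AP1, a cofactor of strand invasion, rose by 1.51 with MMS and 0.77 with EMS and fell by 0.57 with COL and 0.49 with VCR. Of 14 end joining genes, the other way of mending breaks, 6 rose and 5 fell after 24 h of 320 µM MMS. These counts are also near the shares of all tested genes. PAXX had the largest change there, a rise of 0.94, followed by XRCC5 at -0.61 and XRCC6 at -0.59. With the highest COL dose at 24 h 2 of the end joining genes rose and 7 fell.

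Genes of the cell cycle and of p53 moved in the same arrays. Of 20 S phase genes 17 rose and 1 fell after 24 h of 320 µM MMS (median 0.43), 11 rose and 2 fell with 4 mM EMS, and 18 fell and 0 rose with each of COL and VCR (medians -0.42 and -0.38). Of 18 mitosis genes 0 rose and 12 fell after 4 h of 200 µM FA. At 24 h of the highest doses 2 rose and 11 fell with FA, 4 rose and 12 fell with MMS, 4 rose and 8 fell with EMS, 3 rose and 8 fell with COL, and 9 rose and 4 fell with VCR. All 17 tested p53 targets rose at 24 h with the highest dose of every chemical, with medians of 1.93 for FA, 2.31 for MMS, 2.11 for EMS, 0.98 for COL and 0.57 for VCR. At 4 h of 200 µM FA the p53 target MDM2 fell by 0.96 while CDKN1A rose by 0.21. In bulk RNA, fewer cells of a cell cycle phase and less RNA per cell cannot be told apart, and the part of these genes in the changes of the 29 was not tested.

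Gene length was set beside the changes as a description across genes, which share arrays and are not independent. After 4 h of 100 µM FA the Spearman correlation of log2 change with gene length was -0.560 over the 29 genes and -0.431 over 14008 tested genes, so longer genes were lower. At 200 µM it was -0.027 over the 29 genes and -0.306 over all. The median length was 51.3 kb for the 29 genes and 26.1 kb for all, and the 29 ranged from 3291 bases (FANCF) to 863318 (RAD51B).

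A second reading came from 23 other probe sets bright enough to test, in 15 of the 29 genes. They were compared in 237 pairs in which the main probe set was called: 125 were called in the same direction, 7 in the opposite direction, and 105 were not called. The 7 opposite pairs were of FANCI (3), RAD50 (2), ERCC1 (1) and RAD52 (1).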

How the data were processed

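Total RNA of TK6 cells was hybridised to 120 arrays, 24 for each of 5 sets. The deposited values are log2 expression per probe set made by RMA, per the submitters' processing notes, and the RMA version is not given in the sources used here. Of 54675 probe sets, 62 are controls, 41091 name a single gene symbol, 1801 name several and 11721 none, per GEO's platform annotation. Of the single-symbol ones 41037 had a RefSeq identifier in GRCh38.p14, the source of positions. Promoters came from RefSeq's promoter table, and no genome was given.

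Each set's 24 arrays were fitted as 8 group means without a block in limma 3.58.1 in R 4.3.3 (tables read by data.table in version 1.17.8), with two-sided moderated tests adjusted by Benjamini and Hochberg over 14023 genes, and comparisons between chemicals used the arrays of all sets concerned. Tables and figures were made with python 3.11.15, numpy 2.4.6, pandas 2.3.3 and matplotlib 3.10.9, and the fit was tested on simulated data. The highest correlation between arrays was 0.99878, and none were identical.

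The genes and lists were chosen with earlier results of these data known. Values by array are given for the 10 genes with the largest called changes, for genes called in opposite directions at 4 h and 24 h of a highest dose, and for some others chosen after their values were seen. Non-members are up to 3 called genes of a pathway list with the largest changes, with MDM2, CDKN1A and RAD51AP1. Lists were read by counts and medians, without a set test.

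The labels number experiments 1 to 3. To check whether these numbers pair arrays, deviations of same-numbered arrays from their group means were correlated: 29 of the 30 comparisons had a mean r above 0 (lowest -0.132, median 0.285, highest 0.509), and 19 had every pair over 0.1. The alternatives tried were a block for experiment, testing dim genes too, averaging a gene's probe sets or using its other ones, a further quantile normalization, a joint fit of all 120 arrays, leaving out each experiment, and leaving out experiment 3 of the untreated FA group at 4 h.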

Additional observations from a re-analysis of the deposited data

Results flagged for a closer look

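These results are listed because the difference between groups was itself tested and called (limma, adjusted p under 0.05), at the highest dose of each chemical. The change at 24 h differed from that at 4 h in 20 of the 29 genes with formaldehyde (53.3% of all tested genes), 22 with methyl methanesulfonate (45.2%), 15 with ethyl methanesulfonate (38.3%), 14 with colcemid (22.5%) and 16 with vincristine (22.4%). Between the alkylating agents 1 gene differed at 4 h (7.34% of all tested genes) and 20 at 24 h (27.0%), and between the tubulin poisons 1 differed at 24 h (2.02%). The mean of the alkylating agents differed from that of the tubulin poisons in 10 genes at 4 h (23.6%) and 28 at 24 h (54.6%). Formaldehyde differed from the alkylating agents in 23 genes at 4 h (47.6%) and 22 at 24 h (35.4%), and from the tubulin poisons in 21 (50.9%) and 18 (39.7%).

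Called changes of opposite direction at the times came from 6 pairs of gene and chemical. With 200 µM formaldehyde the 24 h change minus the 4 h change was 1.78 for PALB2, 1.30 for BRIP1, -0.56 for ERCC1 and -1.80 for RAD51B, whose 200 µM arrays at 24 h lay below the limit of 6.183. With 320 µM methyl methanesulfonate it was 1.05 for MRE11 and 0.84 for RAD50.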

How the results depend on the processing

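The 29 genes had 286 called changes against untreated, of which the 144 of 13 genes given by array were tested again. Of these, 144 kept their direction and call with experiment as a block, 144 with quantile normalization repeated, 140 with all arrays in one fit, 138 without the filter, and 120 with the mean of probe sets, where 1 reversed. Without experiments 1, 2 and 3, 100, 120 and 128 kept their call and none reversed. Of 21 changes at 4 h of formaldehyde, 18 kept it without the untreated array of experiment 3, and the counts at 100 and 200 µM were 17 and 18. Having 3 arrays a group limits all of these.

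Counts that moved were, with the replicate block, 11 for 160 µM MMS at 4 h and 2 for MMS against EMS at 4 h, where the mean of probe sets gave 0 and quantile normalization 4. For 4 mM EMS at 4 h no filter gave 3 and quantile normalization 8, and the untreated EMS arrays between times had 8 with the mean of probe sets. Quantile normalization gave 1 for 80 µM MMS and 1 for 2 mM EMS at 4 h, and all arrays in one fit gave 2 for 50 µM FA at 4 h and 1 for 100 µM FA at 24 h. The block changed no other count by as much. The causes were not tested.

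Leaving out 1 experiment gave, at 4 h, 9 to 15 calls for 100 µM FA, 16 to 19 for 200 µM, 0 to 3 for 160 µM MMS, 7 to 10 for 320 µM and 0 to 1 for 4 mM EMS. At 24 h it gave 5 to 7 for 80 µM MMS, 2 to 7 for 1 mM EMS and 6 to 12 for 2 mM EMS. Between times it gave 9 to 13 for EMS, 4 to 7 for untreated MMS arrays and 6 to 9 for untreated EMS arrays. It gave 0 for MMS against EMS at 4 h and for COL against VCR at 24 h.

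Reversals among these 13 genes came from other probe sets, which were bright enough in 9 of them. FANCI was not among the 13, and 1 of its other probe sets was called the opposite way in 3 comparisons. ERCC1 at 4 h of 320 µM MMS read 0.032 with the mean of probe sets and 0.49 with another, and at 24 h of 200 µM FA 0.13 and 0.087. RAD52 read 0.15 and 0.26 at 4 h of 100 µM FA, 0.17 and 0.13 at 200 µM, -0.027 and -0.034 at 24 h of 160 µM MMS, 0.19 and 0.053 with the middle and 0.010 and 0.028 with the highest VCR dose. RAD50 read -0.23 at 4 h of 200 µM FA, 0.37 at 4 h of 320 µM MMS, -0.098 and -0.034 at 24 h of 160 and 320 µM MMS, -0.096 with 4 mM EMS and 0.040 with the highest VCR dose. RAD51D read -0.092 at 4 h of 200 µM FA, BRIP1 -0.025 at 24 h, and RAD51C -0.050 and -0.11 with the middle and highest VCR dose.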
